A study of Auxenochlorella pyrenoidosa with 12 samples.

Results

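Among the transcripts of the green alga Auxenochlorella pyrenoidosa, 134 of 16413 measured features were abundant and nearly equal in level at 4 nitrate supplies. A feature here is an assembled RNA sequence, named by the assembler, and may be a whole transcript or a fragment of one. The members were chosen by their measured values: a mean of at least 100 CPM in each of the 4 groups, and a largest group mean at most 15% above the smallest. CPM is a feature's count divided by the library's summed counts, times 1000000. The near-equality of the group means is therefore the choice itself and not a finding. The choice used all 12 libraries.

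The strain is SHOU-1002, and the groups are named by NaNO3 in the medium. N1.5 had 1.5 g/L and is the control, N1 had 1 g/L, N0.5 had 0.5 g/L and N0 had 0 g/L. Each group has 3 libraries, which the design text calls biological repeats. The labels give no other agent or genotype, and the sources used here do not give the sampling time or culture conditions. Whether the repeats were separate cultures is not stated, so errors measure the spread between these libraries. Library totals lay between 22027761 and 24383226 estimated counts.

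Nitrate is the usual nitrogen source of such algae. It is reduced through nitrite to ammonium and built into amino acids. When nitrogen runs short, green microalgae typically slow growth, dismantle part of their photosynthetic apparatus and store carbon as starch and lipid. Transcripts that keep their level through such a shift are of use as references in quantitative PCR and for scaling. Sequencing reports shares of a library and not molecules per cell, so a constant CPM means a constant share of the counted RNA. In bulk samples, a change in cell number and a change in RNA per cell cannot be told apart. The files do not pair features with genes or sequences, so no function is given for any member, and the species could not be checked against marker genes.

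All libraries outside N0 held a trace of features nearly restricted to N0, and 4 of these libraries held the most. For 32 such features, the median level was 1.19% of the N0 level in N1.5 replicate 3 and 0.727% in N1 replicate 1. It was 1.02 and 1.11% in N0.5 replicates 1 and 2, and 0.128 to 0.448% in the other libraries outside N0. Without these 4 libraries the same rule gave 124 features, of which 100 are members.

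For single features scaled by library totals, near-equal levels were uncommon among abundant features. Of 1331 features with all 4 group means at 100 CPM or more, the 134 members are 10.1%. Over the 1331, the median ratio of the largest to the smallest group mean was 1.48 and the highest was 33.3, and 321 features (24.1%) had a ratio of 2 or more. Within the members the ratio ran from 1.013 upwards with a median of 1.11. The largest mean was at most 5% above the smallest in 9 members and at most 10% in 55. Another 71 features lay between 15 and 20%, so the limit cuts through a continuous range.

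**Figure D1:**
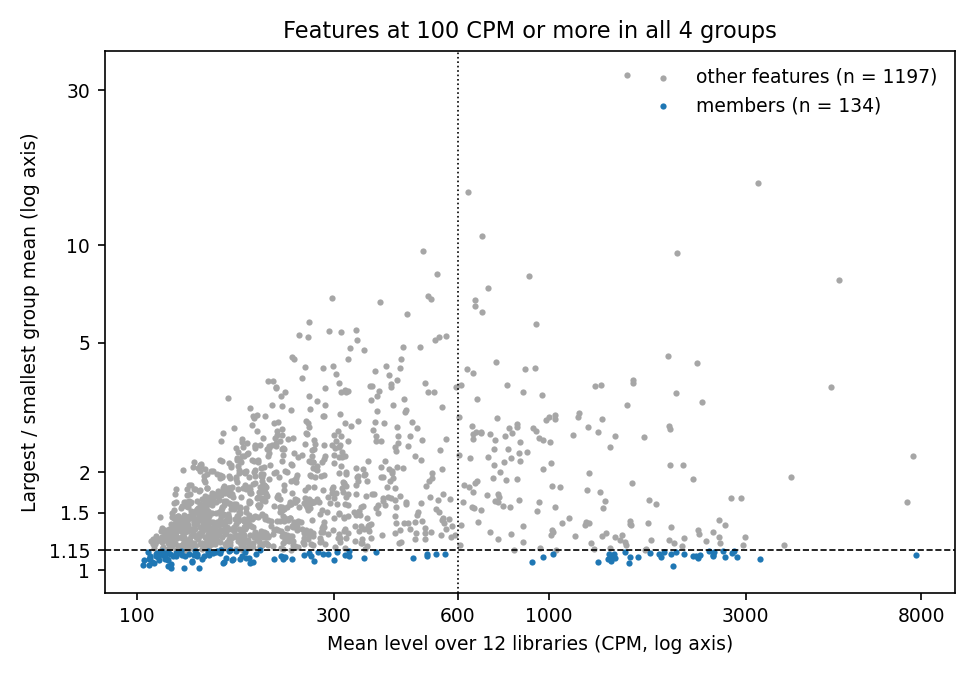
Ratio of the largest to the smallest of the 4 group means against the mean level over 12 libraries, for the 1331 features at 100 CPM or more in all groups (both axes logarithmic). Blue points are the 134 members under the dashed limit of 15%, grey points are the other 1197 features, and the dotted line at 600 CPM lies in a range of levels, from 558 to 907 CPM, that holds no member.

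A member and a feature that is none lay on either side of the limit. TRINITY_DN6688_c0_g1_i6_1 was the last member inside, with a ratio of 1.1496. Its levels were 175, 163 and 160.1 CPM in N1.5, 174, 172 and 185 in N1, 156, 175 and 193 in N0.5, and 141, 174 and 147 in N0. Its groups overlapped, and N0 replicate 2 was as high as N1 replicate 1.

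TRINITY_DN5769_c0_g1_i2_3 was the first feature outside, with a ratio of 1.1503. Its levels were 138, 140.2 and 141 CPM in N1.5, 139.7, 145 and 135 in N1, 126, 120.3 and 119 in N0.5, and 128, 127 and 125 in N0. Here all libraries of N0.5 and N0 lay below all libraries of N1.5 and N1. The feature inside the limit was thus the noisier of the pair, since its within-group SD was 7.68% of the mean (median of the 4 groups) against 2.16% for the one outside.

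The members fall into 2 ranges of level. Of the 134, 97 had a mean between 103 and 558 CPM and 37 had a mean between 907 and 7777 CPM. Between 558 and 907 CPM there was no member, although 81 other features of the 1331 lay there. The boundary of 600 CPM used below was set after these values were seen, and the comparisons of both classes are descriptions. The 37 upper members took 7.38 to 8.29% of a library's counts, and the 97 lower members took 1.77 to 1.84%.

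The share of near-constant features changed with level, near the floor partly through the rule itself. No group mean may lie below 100 CPM, so a feature averaging just above it cannot have a large ratio. The median ratio was 1.31 at 100 to 150 CPM, 1.55 at 150 to 300 and 1.81 at 300 to 600. Between 100 and 150 CPM, 50 of 308 features were members (16.2%), and between 150 and 300 CPM 35 of 578 (6.06%). The share was 5.17% (12 of 232) between 300 and 600 CPM and 0 of 72 between 600 and 900. It was 16.1% (10 of 62) between 900 and 1500 CPM, and 25 of 70 (35.7%) between 1500 and 3000 CPM. Of the 9 features at 3000 CPM or more, 2 were members. The replicate spread did not follow this course: the median within-group SD was 4.53% of the mean at 100 to 150 CPM, 4.73% at 600 to 900 and 4.44% at 1500 to 3000. The members make up 34 of the 100 most abundant features of N1.5, which is 25.4% of the members.

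The upper members were also short. Feature lengths, recovered from the ratio of count to FPKM (a count scaled by feature length and by a library total), had a median of 1139 bases in the 37 upper members and ranged from 304 to 2186. The 176 other features at 600 CPM or more had a median of 1765.5 bases. They were not matched in level, with a median of 1015 CPM against 1972 CPM in the upper members. The 97 lower members had a median of 2614 bases and ranged from 779 to 8099, against 2640 in the 1021 other features at 100 to 600 CPM. These lengths were not used by the rule. Features are not independent replicates, and no test of these differences was made. Per length, mean levels ran from 534 to 8524 FPKM in the upper members and from 17.0 to 559 FPKM in the lower ones. The classes thus overlapped slightly on the FPKM scale, on which levels of different features can be compared.

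TRINITY_DN3185_c0_g2_i1_1 had the highest level per length of all members, 8524 FPKM, and is also the shortest member at 304 bases. Its levels were 2325, 2436 and 2463 CPM in N1.5, 2131, 2309.9 and 2177 in N1, 2385, 2375 and 2285 in N0.5, and 2374, 2268 and 2069 in N0. The N1 libraries lay below those of N1.5, while N0 held the lowest library of all and overlapped the other groups.

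TRINITY_DN5424_c0_g1_i1_2 followed with 4308 FPKM and 658 bases. It had 2594, 2671 and 2539 CPM in N1.5, 2269, 2510.0 and 2265 in N1, 2511, 2450.1 and 2376 in N0.5, and 2803, 2580.1 and 2620.3 in N0. All libraries of N0 were above all of N1 and of N0.5. At the other end, TRINITY_DN758_c0_g1_i1_1 had the lowest level per length, 17.0 FPKM, and is the longest member at 8099 bases. Its CPM lay between 104 and 135 over the 12 libraries, and the lowest and highest value both came from N1.

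The upper members moved together from library to library, within the narrow band that the rule allows. The largest deviations of a library were those in N0.5 replicate 3 and N1.5 replicate 2. Relative to each member's own mean over the 12 libraries, the median log2 deviation was 0.042, 0.089 and 0.043 in N1.5 replicates 1, 2 and 3. It was -0.050, 0.020 and -0.081 in N1, -0.00029, -0.033 and -0.096 in N0.5, and 0.060, -0.0078 and -0.0034 in N0. In N1.5 replicate 2, 34 of the 37 were above their own mean, and in N1 replicate 3 only 2 were.

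As group means, 24 of the 37 were highest in N1.5 and 0 were lowest there, while 21 were lowest in N0.5 and 14 in N1. The group mean of N1 was below that of N1.5 in 36 of 37, that of N0.5 in 32 and that of N0 in 27. Their summed share of counts was 8.13% ± 0.14 (SD, n = 3) in N1.5. It was 7.62% ± 0.29 for N1, 7.66% ± 0.26 for N0.5 and 7.94% ± 0.19 for N0. These directions hold for scaling by library totals and partly turn with the scaling used for the fits, as given below.

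**Figure D2:**
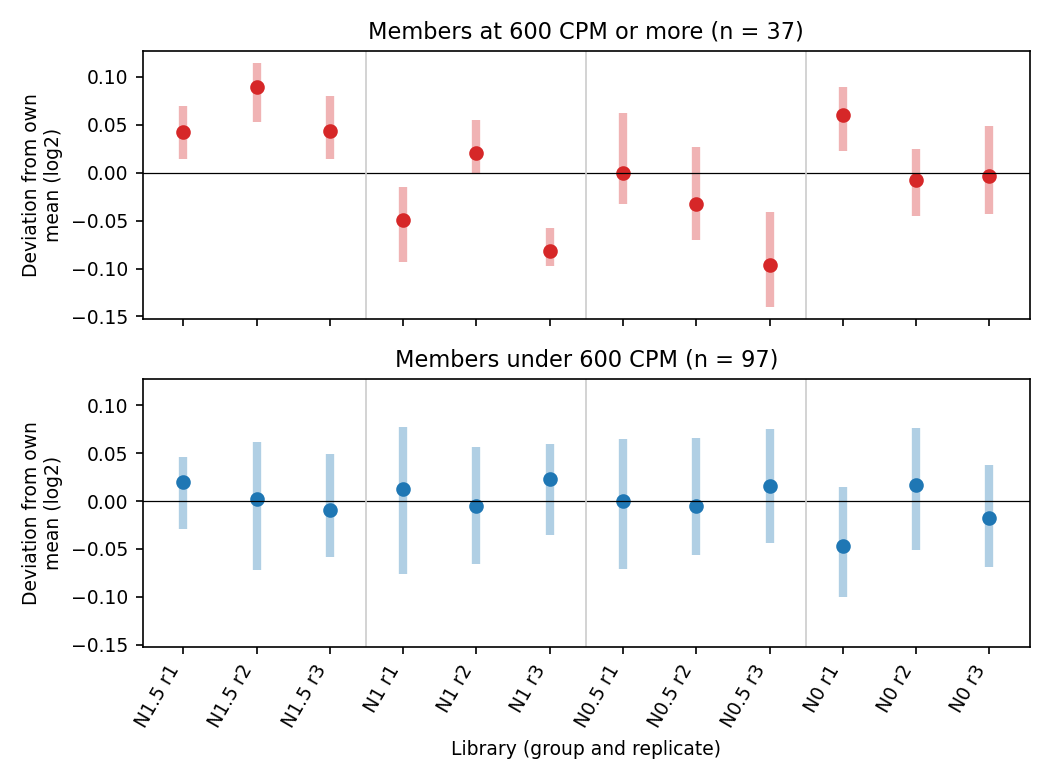
Deviation of each member's CPM from its own mean over the 12 libraries (log2), as the median (point) and the interquartile range of members (bar), for the 37 members at 600 CPM or more (top) and the 97 under 600 CPM (bottom). The upper class is above 0 in all 3 N1.5 libraries and falls to -0.096 in N0.5 replicate 3, whereas the medians of the lower class stay between -0.047 and 0.023.

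The co-movement also appeared among libraries of the same group. The rule used these libraries through their group means, and not the differences between replicates. After each group's mean was removed, the Pearson correlation over the 12 libraries had a median of 0.67 over the 666 pairs of upper members, and 70.9% of pairs were above 0.5. Over the 4656 pairs of lower members the median was 0.052, and over the 15400 pairs of other features at 600 CPM or more it was 0.11. Those other features were not matched to the upper members in level, as given above. The points share libraries and a common total, and no p is given. With TMM scaling, which estimates library size from the bulk of features, the 3 medians were 0.77, 0.13 and 0.47. With 1 library left out in turn the median of the upper members went from 0.57, without N1 replicate 2, to 0.74.

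Set against the mean of the other upper members, 27 of the 37 had a within-group correlation above 0.7, whereas 3 of the 97 lower members did. Of the 176 other features at 600 CPM or more, 41 (23.3%) also did, with a median ratio of group means of 1.27, so features outside the limit followed the same course. The fit to the class was not uniform, since the lowest correlation of an upper member was -0.50. Depth moved with this pattern: in 3 of 4 groups the library with the most counts was also the one with the highest median of the upper members, and in 9 of 12 libraries both deviations from the group mean had the same sign. The part of depth in the co-movement was not tested.

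The 97 lower members showed no such shared course. Their highest group was N0.5 in 31, N0 in 23, N1 in 22 and N1.5 in 21 members, and their lowest group was N0 in 38, N0.5 in 26, N1.5 in 18 and N1 in 15. Their summed share of counts was 1.809% ± 0.016 (SD, n = 3) in N1.5. It was 1.818% ± 0.029 for N1, 1.80% ± 0.011 for N0.5 and 1.797% ± 0.024 for N0. The libraries with the fewest members above their own mean were N0 replicates 1 and 3, with 29 and 39 of 97.

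The member with the most even group means was TRINITY_DN6574_c0_g2_i2_3, with a ratio of 1.013. It had 121, 122 and 119 CPM in N1.5, 120.2, 121 and 121 in N1, 120.4, 117 and 121 in N0.5, and 116, 121 and 126 in N0. The lowest and the highest library both belonged to N0, so the spread between replicates of that group exceeded every difference between groups. TRINITY_DN6443_c0_g1_i2_4 was next, with a ratio of 1.014 and levels between 123 and 134 CPM in all 12 libraries, and all 4 groups overlapped.

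Other members are named for their replicate spread. The median within-group SD was smallest in TRINITY_DN6766_c1_g1_i1_2, at 0.715% of the mean. Its levels were 219.5, 218 and 220.0 CPM in N1.5, 229, 206 and 218 in N1, 204, 201 and 203 in N0.5, and 217, 219.7 and 220.1 in N0. The N0.5 libraries were lower than all other libraries, at a ratio of 1.08. Its SD was 0.945 CPM in N1.5, 1.56 in N0.5 and 1.44 in N0 but 11.4 in N1, so the N1 libraries were not close to each other.

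The largest spread was that of TRINITY_DN7014_c0_g2_i1_3, at 11.8%. It had 113, 119 and 98.8 CPM in N1.5, 93.7, 125 and 109.6 in N1, 115, 110.2 and 114 in N0.5, and 102, 135 and 115 in N0. All groups overlapped, and its near-equal means hide libraries that differ by more than the limit.

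**Figure D3:**
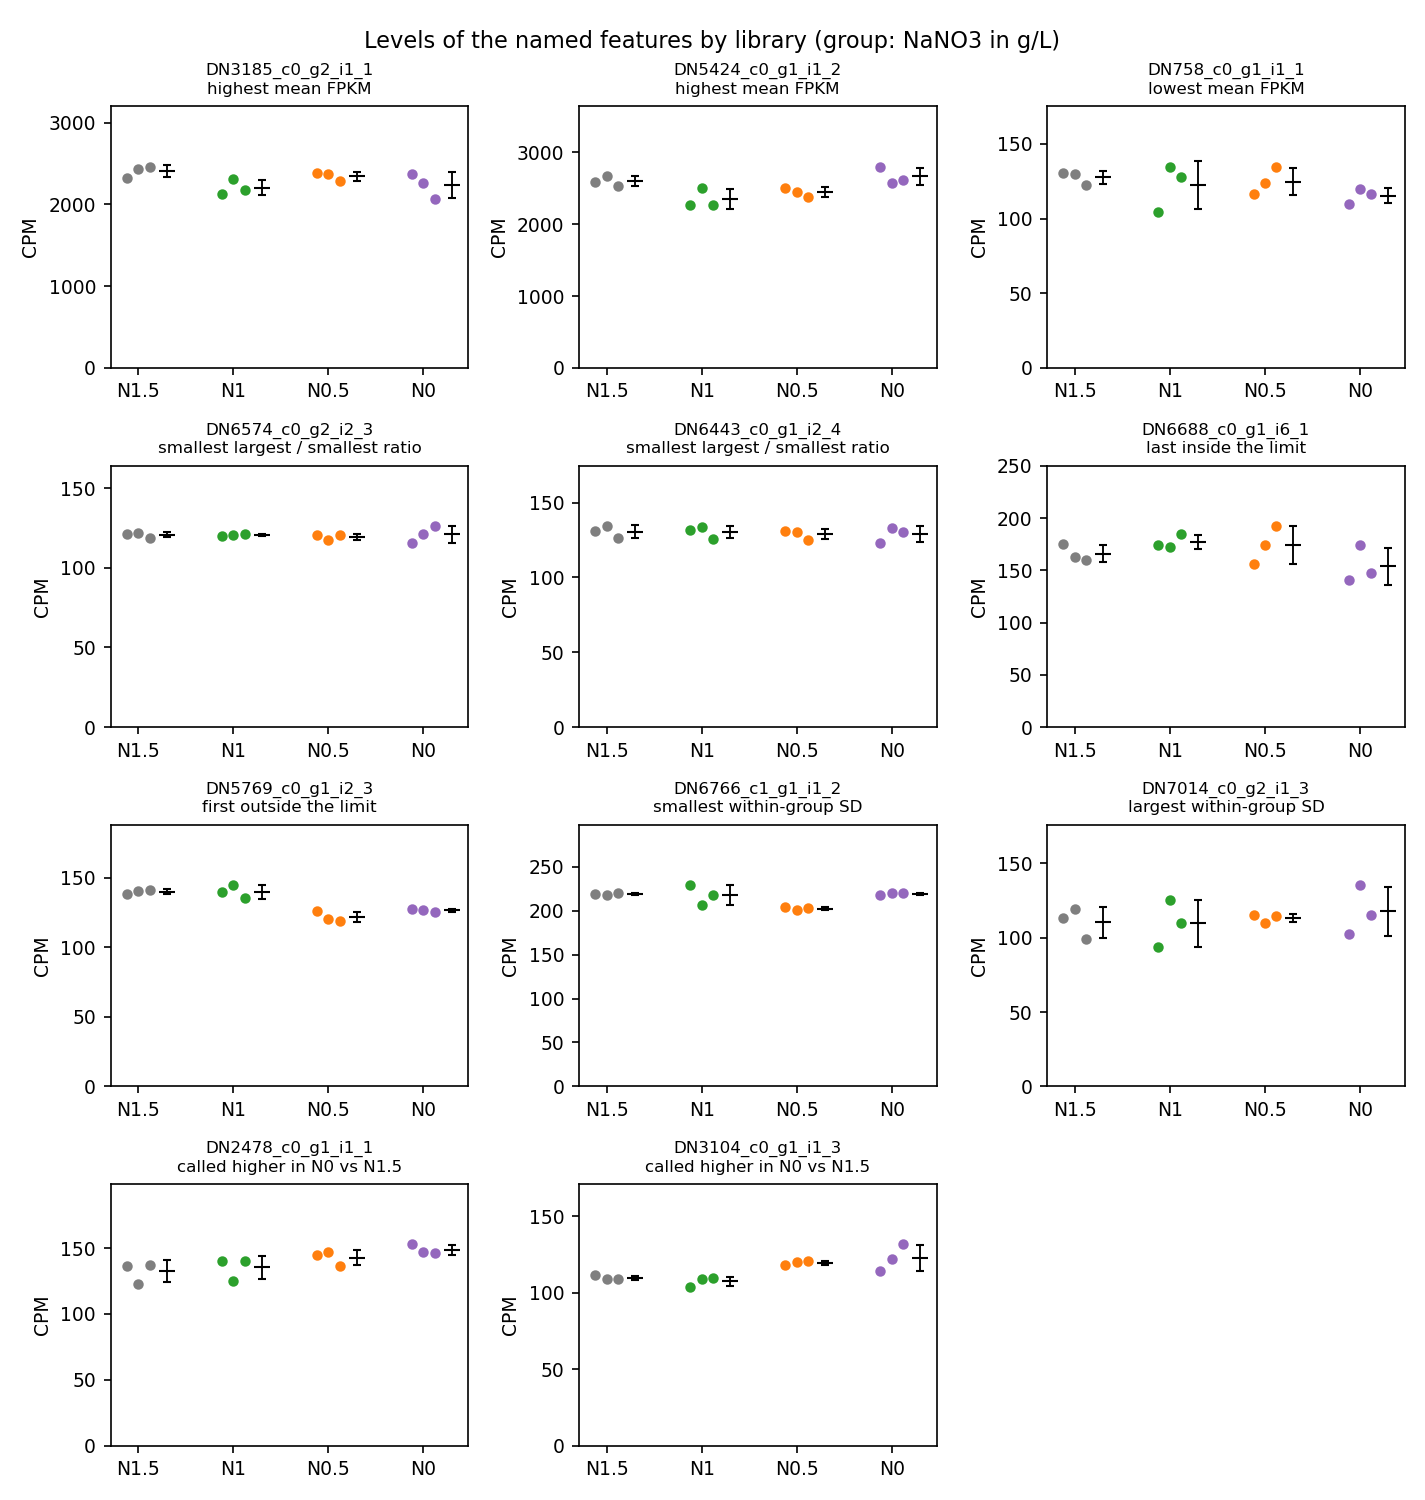
CPM of 11 named features in every library, with the mean and SD of the 3 libraries of each group beside the points (vertical axes start at 0). TRINITY_DN6574_c0_g2_i2_3 is level in all groups, TRINITY_DN6766_c1_g1_i1_2 has its 3 N0.5 libraries at 201 to 204 CPM below all others, and TRINITY_DN7014_c0_g2_i1_3 scatters from 93.7 to 135 CPM.

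Over all members, the within-group SD (median of 4 groups) had a median of 3.91% of the mean, with an interquartile range from 2.96 to 5.14%. It was 4.68% in the 1197 other features at 100 CPM or more. Counting error alone would give a median of 1.53% in the members, so most of their replicate spread lies beyond counting error. The ratio of the highest to the lowest of the 3 libraries of a group had a median of 1.08 in the members, beside 1.11 for the ratio of their 4 group means. In the other 1197 features these medians were 1.09 and 1.56.

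Libraries that took no part in the choice gave a less favourable picture. The rule was applied to 2 replicates of every group, and the levels were read in the remaining 4 libraries, 1 of each group. With replicate 1 left out, 128 features were chosen, 114 of them members, and the ratio of the highest to the lowest of the 4 unused libraries had a median of 1.14. With replicate 2 left out it was 1.13 over 118 features, and with replicate 3 left out 1.151 over 135. Among features at 100 CPM or more that were not chosen, the medians were 1.61, 1.55 and 1.58. A difference of at most 15% in the unused libraries was found in 69 of 128, 70 of 118 and 67 of 135 chosen features. A ratio of at most 1.5 was found in 128 of 128, 118 of 118 and 134 of 135. These are ratios of single libraries, which scatter more than means of 3.

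**Figure D4:**
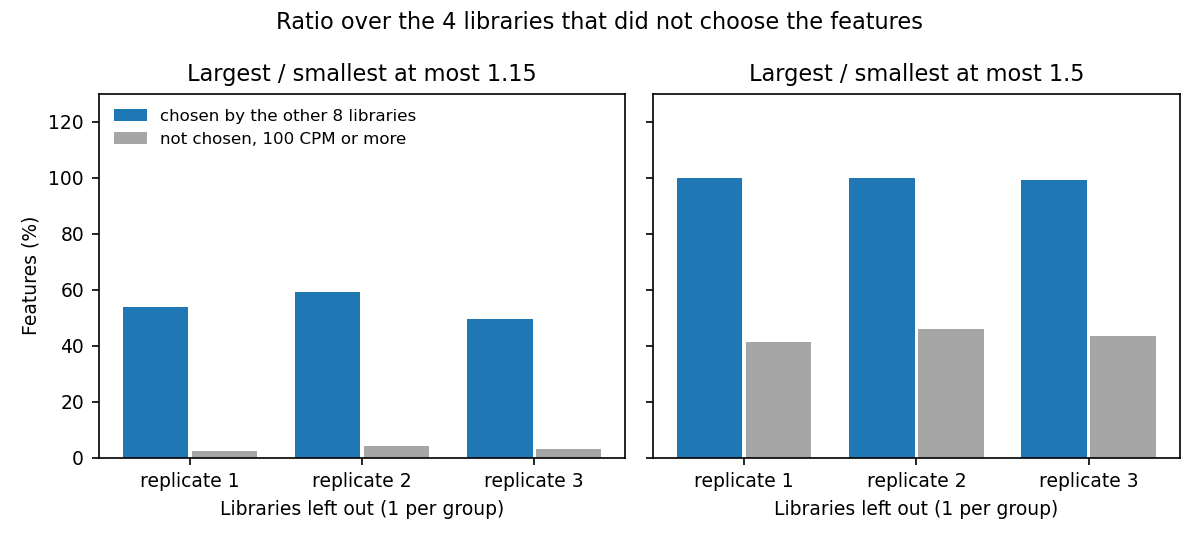
Percentage of features whose highest and lowest of 4 libraries, 1 of each group and not used in choosing them, differed by at most 15% (left) or 1.5 times (right). Between 49.6 and 59.3% of the chosen features met 15%, against 2.41 to 4.29% of features at 100 CPM or more that were not chosen, and at least 99.3% against at most 45.9% met 1.5.

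Whether the members count as unmoved depended on the scaling. Each pair of groups was compared by edgeR's quasi-likelihood test over 15429 features, with TMM scaling and a Benjamini-Hochberg adjusted p under 0.05 as the call. All 134 members were tested. The rule used the same libraries, so these counts describe the members and support nothing.

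In N1 against N1.5, 0 of 134 members were called, against 7.58% of all tested features (3.97% higher, 3.6% lower). At an unadjusted p under 0.05, 4 members were higher and 4 lower by edgeR, and 5 higher and 9 lower by DESeq2. After adjustment DESeq2 called 0. In N0.5 against N1.5, 27 members were called, all higher (61.9% of all features were called, 30.6% higher and 31.3% lower). In N0 against N1.5, 59 were called, all higher (57.8%, 26.6% higher and 31.2% lower).

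In N0.5 against N1, 30 members were called, all higher (60.4%, 29.1% higher and 31.3% lower). In N0 against N1, 68 were called, all higher (55.3%, 25.6% higher and 29.7% lower). In N0 against N0.5, 44 were called, all higher (67.3%, 34.2% higher and 33.1% lower). By edgeR with TMM the number lower was 0 in each comparison. At an unadjusted p under 0.05 it was also 0 in the 5 comparisons other than N1 against N1.5. DESeq2 called 0 members lower after adjustment. At an unadjusted p under 0.05 it had 1 lower in N0.5 against N1.5 and 1 in N0.5 against N1. When only the 2 groups compared were fitted, which changes the TMM factors, 10 of 31 calls in N0.5 against N1.5 and 4 of 19 in N0.5 against N1 were lower. The comparisons share libraries and are not independent of each other.

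With library totals, the scale on which the members were chosen, calls went both ways. In N0 against N1.5, 4 members were higher and 9 lower (59.5% of all features called, 18.9% higher and 40.6% lower). In N0.5 against N1.5, 6 were higher and 25 lower (61.7%, 26.2% higher and 35.5% lower), and in N0.5 against N1 12 and 12 (59.9%, 25.4 and 34.5%). In N0 against N1, 7 were higher and 7 lower (56.8%, 18.2 and 38.5%), and in N0 against N0.5 12 and 15 (66.9%, 30.3 and 36.6%). In N1 against N1.5, 0 members were called (7.97%, 3.86 and 4.11%), with 4 higher and 16 lower at an unadjusted p under 0.05, again by edgeR.

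The difference is the shift between both scalings. Over all tested features, log2 fold changes in N0 against N1.5 had a median of -0.015 with TMM and -0.19 with library totals. That of the members was 0.14 with TMM and -0.034 with library totals, above the median of all features on both scales. The 1197 other features at 100 CPM or more had medians of 0.16 and -0.015, slightly above those of the members. In this comparison other abundant features thus also lay above all features. In N0.5 against N1.5 the medians were 0.045 for all features and 0.068 for the members with TMM, and -0.041 and -0.019 with library totals. Those of the 1197 were 0.27 and 0.18. In N0 against N0.5 the 1197 lay below all features and the members above, with TMM medians of -0.055, -0.024 and 0.10. With library totals these were -0.14, -0.11 and 0.014. On TMM-scaled CPM, 61 of the 134 members kept group means within 15%, and the highest ratio was 1.28.

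**Figure D5:**
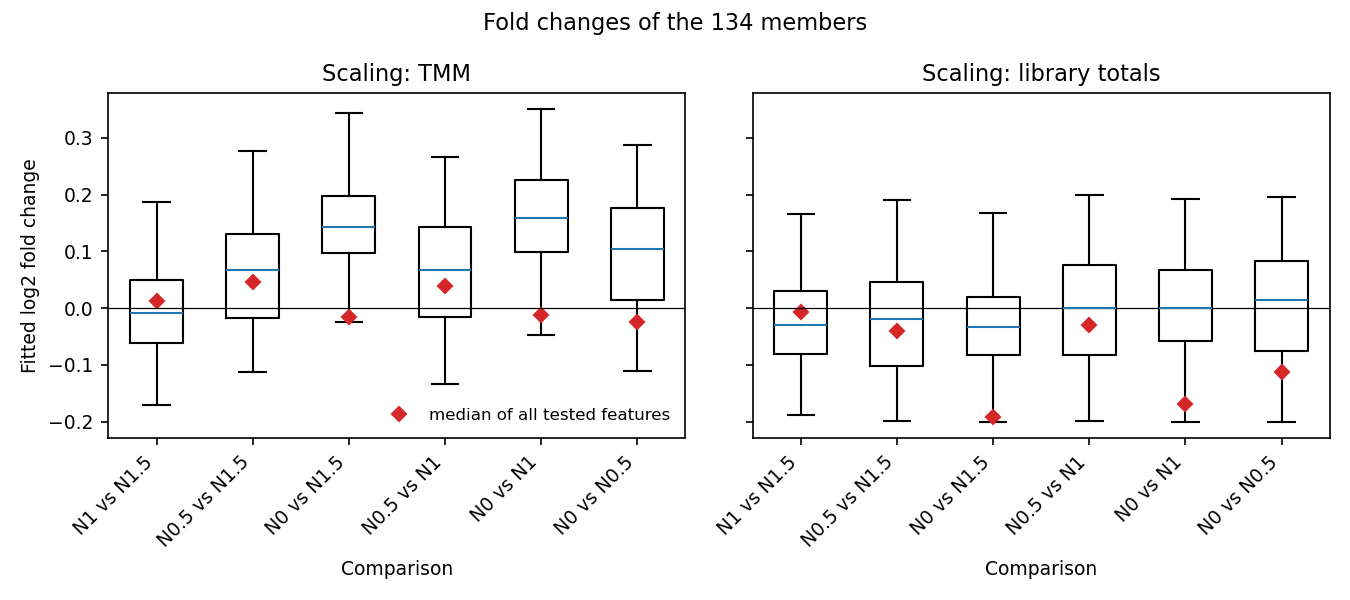
Fitted log2 fold changes of the 134 members in the 6 comparisons, with TMM scaling (left) and library totals (right). Boxes give the interquartile range with the median in blue, whiskers reach the lowest and highest member, and red diamonds mark the median of all 15429 tested features. With TMM the members' median in N0 against N1.5 is 0.14 and the diamond is at -0.015, and with library totals they are at -0.034 and -0.19.

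The change of scaling moved both level classes by about the same amount. In N0.5 against N1.5 the median log2 fold change of the 37 upper members was -0.035 with TMM and -0.12 with library totals, and that of the 97 lower members was 0.082 and -0.0073. The classes lay at different medians, and their counts of calls moved differently. With library totals, 19 of the 37 upper members were called lower in N0.5 than in N1.5 and 0 higher. Of all tested features, 35.5% were lower and 26.2% higher there. With TMM 1 upper member was called higher and 0 lower (30.6 and 31.3% of all features). In N0 against N1, 30 of the 37 were called higher with TMM (25.6% of all features) and 4 with library totals (18.2%). Of the 97 lower members, 26 were called higher in N0.5 than in N1.5 with TMM. That is 26.8%, beside 30.6% of all features. With library totals 6 lower members were called higher and 6 lower (26.2 and 35.5% of all features). The difference between both classes was not tested.

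The intervals of the fold changes describe the precision of these libraries and set no independent limit, because the choice kept the group means within 15% of each other. The median standard error of a member's log2 fold change in N0 against N1.5 was 0.063 with TMM, and the median 95% interval reached 0.14 to either side. In all 6 comparisons and with both scalings, the intervals of all 134 members lay within a 1.5-fold change in either direction. The farthest point of any interval was 1.44-fold, in N0 against N1.5 with TMM. Within a rise of 25% or the matching fall lay the intervals of 126 members in N1 against N1.5, 109 in N0.5 against N1.5, 89 in N0 against N1.5 and 77 in N0 against N1, with TMM.

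TRINITY_DN2478_c0_g1_i1_1 and TRINITY_DN3104_c0_g1_i1_3 had the largest log2 fold changes of the members in N0 against N1.5 with TMM. With library totals the members ran from -0.20 to 0.17 there, so the largest change in size was a fall. TRINITY_DN2478_c0_g1_i1_1 had 137, 123 and 138 CPM in N1.5, 141, 125 and 140.5 in N1, 145, 147 and 136 in N0.5, and 153, 147 and 146 in N0. All N0 libraries were above all N1.5 libraries. Its log2 fold change in N0 against N1.5 was 0.34 (95% interval 0.17 to 0.52) with TMM and 0.17 with library totals, and it passed the test with both.

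TRINITY_DN3104_c0_g1_i1_3 had 111, 109 and 109 CPM in N1.5, 104, 109 and 109 in N1, 118, 119.9 and 120.5 in N0.5, and 114, 122 and 132 in N0. N0.5 and N0 lay above N1.5 and N1 in every library. The log2 fold change in N0 against N1.5 was 0.34 (0.21 to 0.47) with TMM and 0.16 with library totals, past the test with both. None of the members was called lower in N0 against N1.5 with TMM. TRINITY_DN6574_c0_g2_i2_3, the most even member, had a log2 fold change of 0.18 (0.067 to 0.30) there with TMM and 0.0036 with library totals.

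Non-overlap between groups occurred among the 134 members in spite of their small ratios. In each of the 6 comparisons its share was smaller than among all tested features. On CPM by library totals, all 3 libraries of one group lay beyond all 3 of the other for 62 members in N0.5 against N1.5 (68.8% of all tested features, 30.6% higher and 38.2% lower). The count was 53 in N0 against N0.5 (71%, 31.9 and 39.1%) and 46 in N0.5 against N1 (66.6%, 29.5 and 37.1%). It was 29 in N0 against N1.5 (64%, 21.1 and 43%), 29 in N0 against N1 (61.1%, 20.5 and 40.7%) and 27 in N1 against N1.5 (26.7%, 12.1 and 14.5%). In 34 members (25.4%) all 6 pairs of groups overlapped, as in 9.28% of all tested features and 0.167% of the 1197 other features at 100 CPM or more. With TMM, 34 members (25.4%) were called in 0 of the 6 comparisons, beside 14.8% of all tested features and 1.92% of the 1197. With library totals it was 67 members (50%), beside 15.2 and 0.668%. The rule favours such features, so nothing is read from these shares.

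In N1 against N1.5, 17 of the 27 separated members belonged to the upper class of 37, and all 17 were lower in N1. Of all tested features, 14.5% were separated downwards there. By the edgeR test 0 of the 37 were called in this comparison, with TMM and with library totals (7.58 and 7.97% of all tested features). The upper members moved together between libraries, so the 17 are not independent of each other. In N0.5 against N1.5, 21 of the 37 upper members were separated downwards and 2 upwards. In the lower class of 97, 22 were separated upwards and 17 downwards, beside 30.6% of all tested features upwards and 38.2% downwards.

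The assembler's names group features into putative genes. Of the members, 58 were alone in their group and 76 shared it with 1 to 3 further features, 105 in all, none of which was a member. For 33 members another feature had the same name except for the last number, which was read as another part of the same contig. Without sequences, neither this reading nor the grouping by name could be checked. The counting may divide shared reads among such features, so the levels of those members are uncertain. The member held a median of 84.1% of its group's counts, 34 held 90% or more and 13 held under 50%, the lowest 10.6%. When the counts of a group were summed, 52 of the 76 still met the rule, and the highest ratio among the 76 sums was 3.64. The companions at 10 CPM or more in all groups, 69 features, had a median ratio of 1.59. TRINITY_DN5769_c0_g1_i2_3, the first feature outside the limit, is itself such a companion: the member TRINITY_DN5769_c0_g1_i4_4 of the same group had a ratio of 1.048.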

How the data were processed

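RNA from TRIzol extracts was freed of DNA, selected on oligo(dT) beads and prepared with a NEBNext Ultra kit, per the labels' protocols. The tools named are DESeq, Bowtie2 2.4.5 and Trimmomatic 0.40, per the submitters' processing notes. Counter, assembler settings and annotation: not given in the sources used here. For 16413 features the authors deposited estimated counts and, separately, FPKM. Count divided by FPKM gave 1 length per feature times 1 factor per library. Over 9876 features with more than 100 counts in every library, these lengths were whole multiples (within 0.05) of 1 step, taken as a base. The column sums, used for CPM as the rule asks, were 112 to 113% of the totals behind the FPKM.

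Estimated counts were rounded and tested with edgeR 4.0.16 in R 4.3.3 (filterByExpr by group, 15429 features kept and 984 left out, TMM factors 0.908 to 1.07, 1 coefficient per group, all 12 libraries), with DESeq2 1.42.0 as an alternative. The 95% intervals take the standard error as the size of the log2 fold change over the square root of F, with t quantiles. The test and the rule were tried on simulated data. Replicates of a group differed beyond counting error (chi-square over degrees of freedom between 4.77 and 16.3). The counting error given for members covers counting alone, since the labels name no molecular identifiers and reads may then be copies of the same molecule.

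Features named were the extremes of the members in FPKM, ratio and replicate spread, both sides of the limit, and the largest called changes in N0 against N1.5 with TMM. No assembly group held more than 1 member and 0 members were called lower there, so those parts of the rule named none. TRINITY_DN5769_c0_g1_i4_4 was named after its values were seen. The members, lists and tests were chosen with earlier results of these data known.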

Additional observations from a re-analysis of the deposited data

How the results depend on the processing

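The number of members was 134 by the rule as given. It was 55 with a limit of 10%, 205 with 20%, 299 with a floor of 50 CPM and 62 with a floor of 200 CPM. With RLE size factors it was 87, of which 38 are members, and with TMM 104, of which 58 are. Counts summed over assembly groups gave 304 groups, of which 110 hold a member. With libraries left out singly, or all of one replicate number, it went from 116 to 148. The library scaling of the FPKM, added after seeing the data, gave 130 features, of which 126 are members.

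Of members called, at an adjusted p under 0.01 the counts were 14 in N0.5 against N1.5, 32 in N0 against N1.5, 11 in N0.5 against N1, 34 in N0 against N1 and 18 in N0 against N0.5, where 50.7, 47.9, 49.7, 45.5 and 58.1% of all tested features were called. With library totals they were 13 in N0 against N1.5, 14 in N0 against N1 and 27 in N0 against N0.5. Fitting only the groups compared gave 19 in N0.5 against N1, 4 of them lower, and 31 in N0.5 against N1.5, 10 of them lower. Without the 4 libraries with the highest trace of N0 features they were 39 in N0 against N1.5 and 39 in N0 against N1. A single N0.5 library was then left, assumed to vary like the other groups, so its comparisons are given as fold changes only. The members' median log2 fold change then was 0.051 in N0.5 against N1.5 (0.068 with all libraries). It was 0.054 in N0.5 against N1 (0.068) and 0.14 in N0 against N0.5 (0.10).

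With 1 library left out, calls went from 0 to 2 in N1 against N1.5, 15 to 26 in N0.5 against N1.5, 34 to 83 in N0 against N1.5, 15 to 30 in N0.5 against N1, 42 to 83 in N0 against N1 and 26 to 82 in N0 against N0.5. Counts moved over 1.5 times without N1.5 replicate 2 (15 in N0.5 and 39 in N0, against N1.5), N1.5 replicate 1 (34 in N0), N0.5 replicate 2 (17 against N1.5, 18 against N1), N0.5 replicate 1 (15 against N1), N1 replicate 3 (19 in N0.5, 42 in N0), N1 replicate 2 (2 in N1), N0.5 replicate 3 (26) and N0 replicate 2 (82, both in N0 against N0.5). The cause was not tested. The shares of all tested features called are not given here for these fits. They are also not given for the fits of 2 groups, without the 4 libraries or with a replicate block. These counts therefore do not tell how the members moved relative to all features. With 1 library left out, 1 member was called lower in N0.5 against N1 without N1 replicate 2. The same number was called lower in N0 against N0.5 without N0.5 replicate 3. DESeq2, RLE size factors and no filter moved no count by over 1.5 times, and each called 0 members lower.

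Replicate numbers did not pair the libraries: same-numbered deviations correlated between -0.067 and 0.17. With a replicate block the counts were 29, 64, 33, 69 and 49, and 0 in N1 against N1.5, so the block moved no count by over 1.5 times. Of the 11 named features, 6 had log2 fold changes of opposite sign with TMM and with library totals in N0 against N1.5. Of these, 3 passed the test on 1 scale: TRINITY_DN6443_c0_g1_i2_4 (0.16 with TMM, -0.020 with library totals) and TRINITY_DN6766_c1_g1_i1_2 (0.18 and -0.0011) with TMM, and TRINITY_DN5769_c0_g1_i2_3 (0.033 and -0.14) with library totals. TRINITY_DN2478_c0_g1_i1_1 and TRINITY_DN3104_c0_g1_i1_3, whose fold changes were refitted under the alternatives for the test, kept their sign there. Groups of 3 are too small for the check for outlying samples.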
